A study of Mus musculus with 8 samples.

Results

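Resistin-like and chitinase-like proteins are secreted proteins, some of which mark type 2 immune responses in the mouse lung. The 7 genes followed here were chosen by symbol, and all 7 are among the 23284 genes of the deposited table. They are the resistin family genes Retn, Retnla and Retnlg, the chitinase-like genes Chi3l1, Chi3l3 and Chi3l4 (now Chil1, Chil3 and Chil4), and the chitinase gene Chia (now Chia1). The 8 RNA samples are lungs of wild-type (WT) C57BL/6 mice that carried transplanted bone marrow and had spent 3 days in hypoxia. In 4 mice the donor marrow lacked neuronal, inducible and endothelial nitric oxide synthase together (n/i/eNOS-/-, called NOS-null marrow here), and in the other 4 the donor marrow was wild type (called WT marrow). The sources used here do not give age, sex or how many lung cells came from the donor. The recipients' own lung cells kept all nitric oxide synthase genes in both groups, and every lung had been in hypoxia, so none of the values measures the response to hypoxia itself.

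The resistin family consists of small cysteine-rich hormones. Retnla encodes RELM-alpha, also called hypoxia-induced mitogenic factor, a mitogen for vascular smooth muscle that airway and alveolar epithelium and alternatively activated macrophages make. Chitinase-like proteins share the fold of chitinases and bind sugars without cutting chitin, while the product of Chia is an active chitinase. In mouse macrophages Retnla and Chi3l3 are classic targets of interleukin 4 and interleukin 13, which act through the transcription factor STAT6.

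The members lie in 2 clusters and at 2 single sites (GRCm38, GENCODE M21). Retnla (chromosome 16, 48842551 to 48844461) and Retnlg (48872621 to 48874496) are neighbours 28.2 kb apart with 0 protein-coding genes between them. On chromosome 3, Chia (106113229 to 106132120), Chi3l3 (106147554 to 106167564) and Chi3l4 (106201490 to 106219507) follow each other with gaps of 15.4 and 33.9 kb. Chi3l1 is on chromosome 1 (134182176 to 134190181) and Retn on chromosome 8 (3655770 to 3660110). No other annotated gene overlaps any of the 7 on either strand.

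The bases before the start of transcription are shown for the neighbouring pairs, since Retnla and Retnlg, and likewise Chi3l3 and Chi3l4, have related upstream sequences while their RNA levels differ. Each is the 250 bases upstream of the RefSeq start (GRCm38.p6), written 5′ to 3′ in the direction of the gene. Capitals mark matches, on either strand, to TTC and GAA with 4 bases of any kind between them (a spacing that STAT6 binds), TTGCNNAA (a form bound by C/EBP factors) and TATAAA (the TATA box).
Retnla, chr16:48842359-48842608, plus strand: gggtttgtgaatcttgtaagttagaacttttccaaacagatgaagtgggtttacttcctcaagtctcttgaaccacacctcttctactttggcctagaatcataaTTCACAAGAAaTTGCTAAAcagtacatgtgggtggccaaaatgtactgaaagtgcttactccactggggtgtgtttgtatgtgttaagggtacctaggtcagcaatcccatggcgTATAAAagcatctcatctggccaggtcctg
Retnlg, chr16:48872358-48872607, plus strand: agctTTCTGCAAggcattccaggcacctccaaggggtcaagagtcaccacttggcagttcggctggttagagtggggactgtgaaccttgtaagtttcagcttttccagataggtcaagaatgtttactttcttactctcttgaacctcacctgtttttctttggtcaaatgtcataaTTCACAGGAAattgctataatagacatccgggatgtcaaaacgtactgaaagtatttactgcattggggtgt
Chi3l3, chr3:106167565-106167814, minus strand: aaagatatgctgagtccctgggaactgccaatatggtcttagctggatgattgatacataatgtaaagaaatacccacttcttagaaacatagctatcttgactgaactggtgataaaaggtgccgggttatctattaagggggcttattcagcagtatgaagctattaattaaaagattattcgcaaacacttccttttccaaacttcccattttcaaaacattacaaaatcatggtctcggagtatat
Chi3l4, chr3:106219480-106219729, minus strand: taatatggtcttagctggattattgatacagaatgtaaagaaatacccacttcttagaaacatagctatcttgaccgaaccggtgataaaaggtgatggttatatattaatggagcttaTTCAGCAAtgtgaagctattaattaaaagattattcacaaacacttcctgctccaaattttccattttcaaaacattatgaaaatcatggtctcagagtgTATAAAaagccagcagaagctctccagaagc

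The Retnla and Retnlg windows aligned over 173 columns with 78.0% identical bases, and the Chi3l3 and Chi3l4 windows over 222 columns with 90.5%. The STAT6 form reads the same on both strands. It occurred in the Retnla window as TTCACAAGAA, 145 to 136 bases upstream, and in the Retnlg window as TTCACAGGAA, 72 to 63 bases upstream, and in none of the other 5 members' windows. Of 32851 promoter windows of the same length, 5.85% held it. Other spacings of TTC and GAA were not searched for. The printed Chi3l3 and Chi3l4 windows both hold ttcttagaa, where fewer bases lie between TTC and GAA. TTGCNNAA occurred in the windows of Retnla, Retnlg and Chi3l4 (9.56% of all windows), and TATAAA in those of Retnla, Chi3l4 and Chia (12.4%). ACGTG, the core letters of sites for hypoxia-inducible factor, was in none of the 7 windows and in 16.6% of all windows. None of these matches overlaps another. RefSeq starts differ somewhat from the GENCODE gene ends given above. The windows of each pair are also offset from each other. The Retnlg window ends before the stretch that would align with the TATAAA of Retnla. The Chi3l3 window ends inside the stretch that aligns with the TATAAA of Chi3l4. The lack of TATAAA in the Retnlg and Chi3l3 windows therefore says nothing of the bases beyond them. A match describes letters only, a window with no match lacks only those letters, and no binding was measured.

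Per unit of transcript length, Retnla was the most abundant member and Chi3l4 the least. Mean FPKM (fragments per kilobase of transcript, scaled to sequencing depth by the authors) of Retnla was 1799 ± 1129 with NOS-null marrow, against 3440 ± 1346 with WT marrow (SD, n = 4 each, as for all means here). Among all genes it ranked between 8th and 136th in a library. Chi3l3 came next at 1219 ± 582 with NOS-null marrow, against 542 ± 45.6 with WT marrow, and Retnlg stood at 761 ± 1122 (NOS-null marrow) and 147 ± 43.6 (WT marrow). Chi3l1 stood at 449 ± 65.7 FPKM with NOS-null marrow, against 431 ± 43.1 with WT marrow. Chia followed at 64.0 ± 10.8 (NOS-null marrow) and 45.8 ± 4.18 (WT marrow).

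Retn and Chi3l4 were low, at 5.32 ± 1.54 and 0.922 ± 0.893 FPKM with NOS-null marrow, against 3.17 ± 1.94 and 1.47 ± 0.765 FPKM with WT marrow. In the order of mean FPKM, the ranges over 8 libraries overlapped between Retnla and Chi3l3, Chi3l3 and Retnlg, Retnlg and Chi3l1, and Retn and Chi3l4. Retnlg exceeded Chi3l1 in only 1 of the 8 libraries, NOS-null marrow replicate 1, so its place above Chi3l1 rests on that library. Chi3l1 exceeded Chia, and Chia exceeded Retn, with no overlap. Chi3l3 and Chi3l4 differed 737-fold in mean FPKM, with ratios from 254 to 7517 in single libraries, where Chi3l4 rests on few reads.

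**Figure D1:**
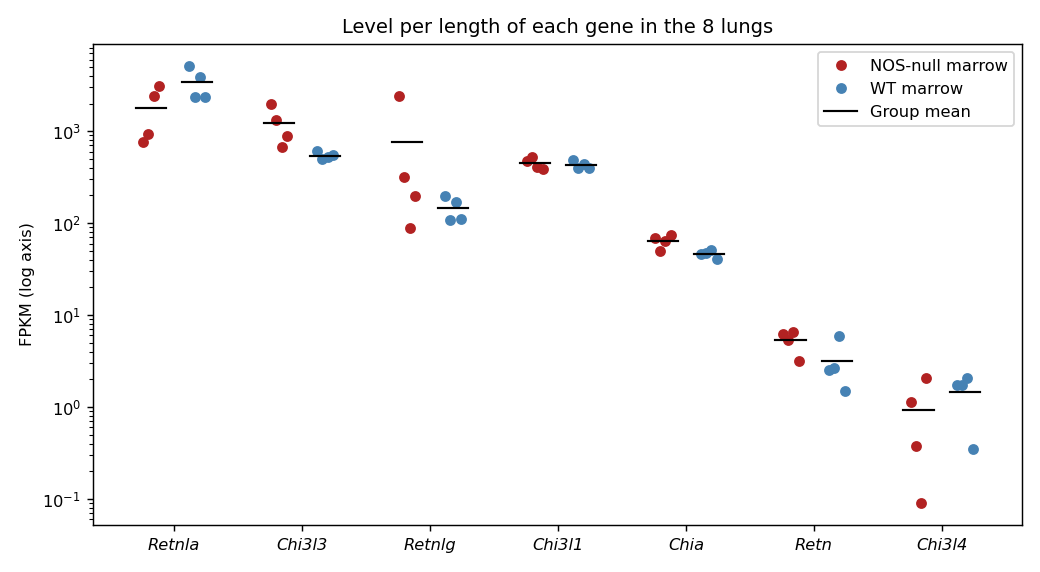
FPKM of the 7 genes on a log axis, ordered by mean level, with 1 point per library, NOS-null marrow left of WT marrow and a line at each group mean. Levels span from 0.0903 FPKM (Chi3l4, NOS-null marrow replicate 3) to 5138 FPKM (Retnla, WT marrow replicate 1), and only Chi3l3 has groups that do not overlap.

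Libraries summed to between 7767065 and 8625142 scaled reads, that is, read counts that the authors divided by 1 size factor per library. Nos2, the inducible synthase gene, averaged 29.5 ± 14.7 scaled reads (NOS-null marrow) and 98.6 ± 13.1 (WT marrow), in the direction of the donor genotype (limma adjusted p = 0.0221). The endothelial gene Nos3 ran from 177 to 219 scaled reads (NOS-null marrow) and from 171 to 207 (WT marrow; adjusted p = 0.701), and the neuronal gene Nos1 had at most 1.09 scaled reads in a library. Lung markers were abundant in every library, with the surfactant gene Sftpc at 82561 ± 12583 scaled reads (NOS-null marrow) and 99604 ± 10399 (WT marrow). With limma, 567 of 14008 tested genes (4.05%) had an adjusted p (Benjamini-Hochberg) under 0.05, 262 higher (1.87%) and 305 lower (2.18%) with NOS-null marrow. Without NOS-null marrow replicate 2 the count was 95, and without WT marrow replicates 1, 2, 3 and 4 it was 71, 81, 87 and 233. The labels name mice but not how the replicates relate, so p-values reflect only how these samples spread, which may be technical.

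All 7 members were tested and none passed, so a comparison of the groups gives sizes and intervals rather than calls. Unadjusted p-values were under 0.05 for 3 members, Chi3l3, Chia and Retnla, where 26.6% of all tested genes were under it. The log2 change was positive in 5 members and negative in 2, and only for Chi3l3 did the groups not overlap, which held for 17.1% of all tested genes (7.82% with every NOS-null marrow library higher, as here, and 9.29% with every one lower). A log2 change is the mean of log2(scaled reads + 1) with NOS-null marrow minus that with WT marrow. In whole lung, fewer cells of a type and less RNA per cell cannot be told apart.

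**Figure D2:**
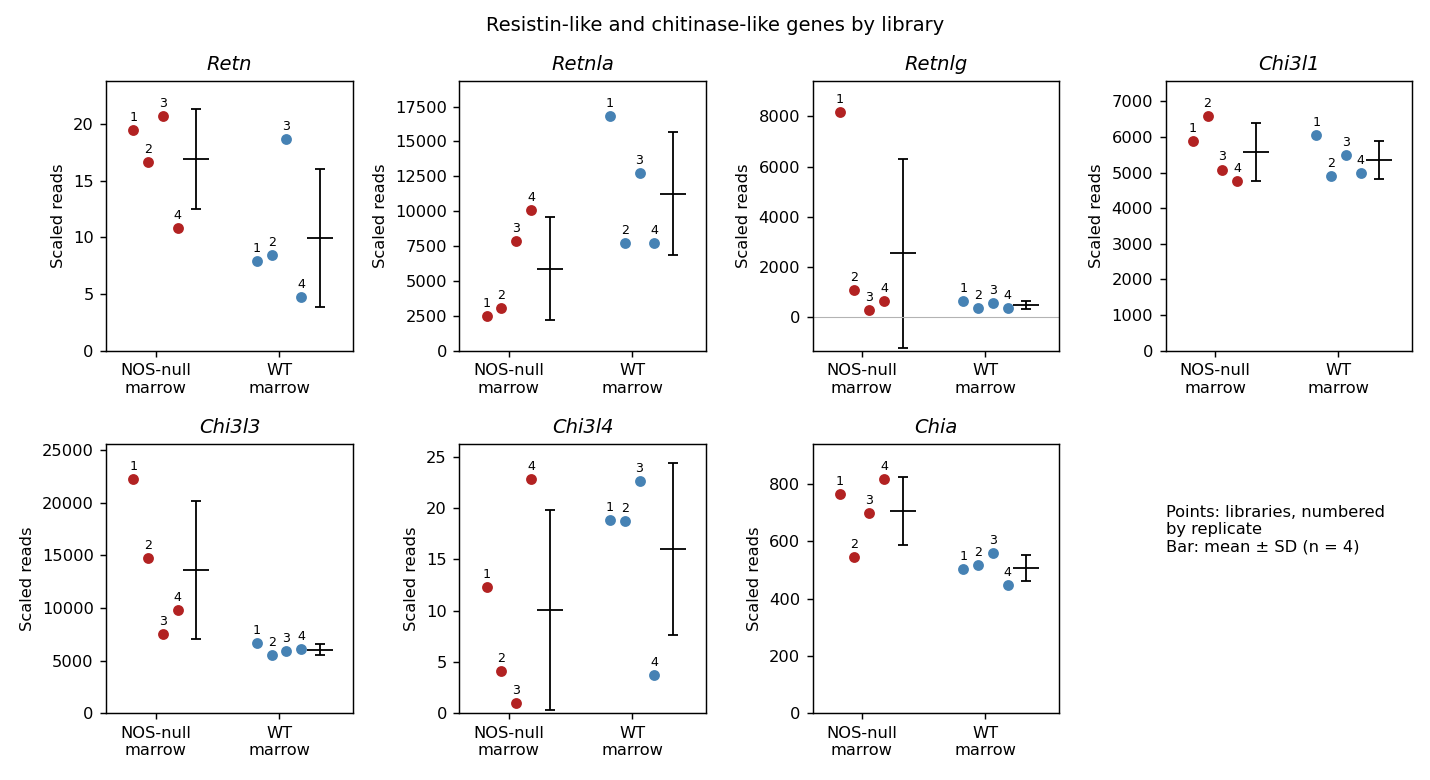
Scaled reads of each gene in each library, with a panel per gene, points numbered by replicate, NOS-null marrow left of WT marrow, and bars for the mean ± SD (n = 4). NOS-null marrow replicates 1 and 2 hold the 2 lowest Retnla values and the 2 highest Chi3l3 and Retnlg values of the 8 libraries.

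Retnla had 2501, 3084, 7870 and 10087 scaled reads in NOS-null marrow replicates 1 to 4, against 16808, 7721, 12765 and 7711 in WT marrow replicates 1 to 4. NOS-null marrow replicates 1 and 2 lay below every other library, while replicates 3 and 4 lay within the WT marrow range, so the groups overlapped. The means were 5885 ± 3692 (NOS-null marrow) and 11251 ± 4403 (WT marrow). The log2 change was −1.10 (SE 0.44, 95% interval −2.07 to −0.12), and limma's adjusted p was 0.149. Among all tested genes 2.41% had a log2 change at least as large in either direction. Without NOS-null marrow replicates 1 and 2 it was −0.25 (adjusted p = 0.674), so the size rests on that pair of libraries.

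Retnlg, a resistin-like gene that mouse neutrophils and bone marrow express, had 8178, 1079, 300 and 659 scaled reads in NOS-null marrow replicates 1 to 4, against 658, 366, 572 and 372 in WT marrow replicates 1 to 4. Replicate 1 of NOS-null marrow stood far above all other libraries, and NOS-null marrow replicate 3 was the lowest of the 8. The means were 2554 ± 3763 (NOS-null marrow) and 492 ± 146 (WT marrow). The log2 change of 1.27 was the largest of the members in size and among the least certain (SE 0.80, 95% interval −0.50 to 3.04, limma adjusted p = 0.323). Leaving out NOS-null marrow replicate 1 gave 0.33 (adjusted p = 0.613), and leaving out replicate 2 as well gave −0.10 (adjusted p = 0.896).

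Retn, which encodes resistin, a hormone of mouse fat cells, had 19.5, 16.7, 20.7 and 10.9 scaled reads in NOS-null marrow replicates 1 to 4, against 7.95, 8.43, 18.7 and 4.73 in WT marrow replicates 1 to 4. All NOS-null marrow libraries exceeded 3 of the WT marrow libraries, and WT marrow replicate 3 lay within the NOS-null marrow range. The log2 change was 0.82 (SE 0.39, 95% interval −0.04 to 1.68, adjusted p = 0.205). Retn reached the minimum of 10 scaled reads in 4 NOS-null marrow libraries and 1 WT marrow library, so it entered the test through the NOS-null marrow group. Of 11 adipocyte markers in the table, 7 were tested and none passed, while the fat droplet gene Plin1 and the leptin gene Lep were too low to test. The summed FPKM of the adipocyte markers ran from 85.7 to 155 with NOS-null marrow and from 62.1 to 148 with WT marrow. Lipe and Fabp4 had the highest means of these markers, 485 and 179 scaled reads over the 8 libraries. Fabp4 is also in the alveolar macrophage list below, so the sum does not measure fat alone. The part of fat cells in the Retn values was not tested.

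Chi3l3, the secreted lectin Ym1 of mouse macrophages and neutrophils, had 22258, 14784, 7576 and 9830 scaled reads in NOS-null marrow replicates 1 to 4, against 6726, 5507, 5892 and 6095 in WT marrow replicates 1 to 4. Every NOS-null marrow library lay above every WT marrow library. The WT marrow libraries were close together (SD 0.12 on the log2 scale) and the NOS-null marrow libraries were spread out (SD 0.68). The means were 13612 ± 6503 (NOS-null marrow) and 6055 ± 509 (WT marrow). The log2 change was 1.05 (SE 0.27, 95% interval 0.45 to 1.66), a 2.07-fold difference with limma's adjusted p at 0.0563. It passed without NOS-null marrow replicate 1 (0.77, adjusted p = 0.0468), replicate 3 (1.29, adjusted p = 0.0210) or replicate 4 (1.17, adjusted p = 0.0485). In the 5 other fits that left out 1 library it did not pass, with adjusted p up to 0.147. Without NOS-null marrow replicates 1 and 2 it was 0.51 (SE 0.12, adjusted p = 0.0683).

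Chi3l4, the near-identical Ym2, had 12.3, 4.16, 0.986 and 22.8 scaled reads in NOS-null marrow replicates 1 to 4, against 18.9, 18.7, 22.7 and 3.78 in WT marrow replicates 1 to 4. The groups overlapped over nearly their whole range. These values are few reads, since 1 read is worth 0.937 to 1.09 scaled reads, and NOS-null marrow replicate 3 held 1 read. The log2 change was −0.94 (SE 0.77, 95% interval −2.64 to 0.76, adjusted p = 0.447). Of all 75-base windows, the length of a read here, in its GENCODE transcript 9.76% also occur in the transcripts of Chi3l3 or of the gene model Gm6522. For Chi3l3 14.2% are shared in this way. The sources used here do not say how the authors' counting assigned such reads. The other 5 members share 0 windows with any other gene. With Chi3l3 and Chi3l4 added together the log2 change was 1.05 (adjusted p = 0.0568).

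Chi3l1 encodes a chitinase-like lectin (BRP-39 in mouse) made by macrophages, neutrophils and epithelium. It had 5889, 6579, 5084 and 4768 scaled reads in NOS-null marrow replicates 1 to 4, against 6054, 4896, 5494 and 4981 in WT marrow replicates 1 to 4. It was the steadiest member, with the highest library 1.38 times the lowest. The log2 change was 0.05 (SE 0.11, adjusted p = 0.795), and its 95% interval ran from −0.20 to 0.31. Without NOS-null marrow replicate 2, its highest library, the change was −0.030.

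Chia, the acidic mammalian chitinase that airway and alveolar epithelium secretes, had 766, 544, 698 and 817 scaled reads in NOS-null marrow replicates 1 to 4, against 504, 517, 558 and 446 in WT marrow replicates 1 to 4. NOS-null marrow replicate 2 lay below WT marrow replicate 3, and the other 3 NOS-null marrow libraries lay above all WT marrow libraries. The means were 706 ± 119 (NOS-null marrow) and 506 ± 46.1 (WT marrow), a log2 change of 0.47 (SE 0.13, 95% interval 0.19 to 0.75, limma adjusted p = 0.0623). Leaving out NOS-null marrow replicate 2 brought it past the threshold (0.59, adjusted p = 0.0398), and it did not pass in the other 7 fits that left out 1 library, with adjusted p up to 0.157. Unlike Retnla and Retnlg it was no smaller without NOS-null marrow replicates 1 and 2, at 0.58 (adjusted p = 0.0301).

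**Figure D3:**
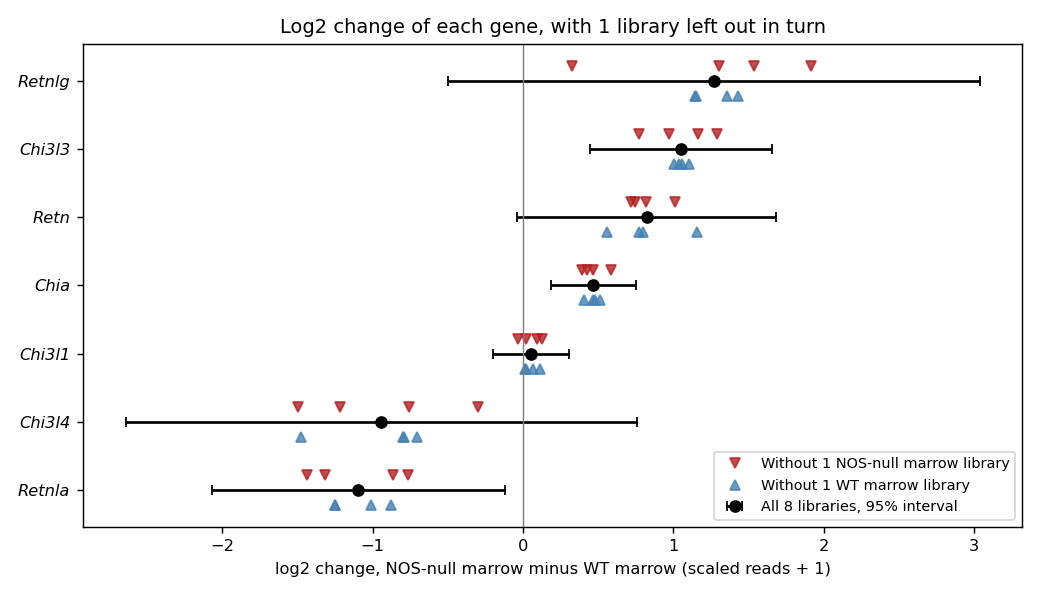
Log2 change of each gene, NOS-null marrow minus WT marrow, with its 95% interval from all 8 libraries (black) and the estimates with 1 library left out (red triangles above for NOS-null marrow libraries, blue triangles below for WT marrow libraries). Retnlg moves furthest, to 0.33 without NOS-null marrow replicate 1, and of the 7 genes only Chi3l1 changes sign in any of these 8 fits.

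Retnla and Chi3l3, both known targets of STAT6, departed in opposite directions in the same lungs, with the lowest Retnla and the highest Chi3l3 in NOS-null marrow replicates 1 and 2. The ratio of Chi3l3 to Retnla FPKM was 2.61, 1.40, 0.282 and 0.285 in replicates 1 to 4 with NOS-null marrow, against 0.117, 0.209, 0.135 and 0.232 in WT marrow replicates 1 to 4. The ratio was above the whole WT marrow range in all 4 NOS-null marrow libraries, and replicates 1 and 2 alone held more Chi3l3 than Retnla. The ratio of the neighbours Retnlg and Retnla was 3.19, 0.341, 0.0371 and 0.0637 in the NOS-null marrow libraries, against 0.0382, 0.0462, 0.0437 and 0.0470 in the WT marrow libraries, with overlap at NOS-null marrow replicate 3. The ratio of Chi3l3 to Chi3l1 was 4.21, 2.50, 1.66 and 2.29 in the NOS-null marrow libraries, against 1.24, 1.25, 1.19 and 1.36 in the WT marrow libraries, again above the WT marrow range in all 4 NOS-null marrow libraries. These ratios were chosen after the values were seen and carry no test.

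The genes nearest to a member in pattern were those whose log2 values about their own mean differed least from the member's over the 8 libraries, given as the root mean square (RMS) distance. Those of Retnla were the retinoic acid synthesis gene Aldh1a2 (RMS 0.25), the thyroid hormone deiodinase gene Dio2 (0.25) and Tinag (0.28), where Retnla itself varied about its mean by an RMS of 0.89. Tinag averaged 26.9 ± 14.5 scaled reads with NOS-null marrow, against 56.3 ± 8.68 with WT marrow (log2 change −1.19, adjusted p = 0.0732). Those of Chi3l3 were the phosphoinositide 3-kinase regulatory subunit gene Pik3r5 (0.11), the leukocyte receptor gene Cd84 (0.15) and Fkbp1b (0.17), against its own RMS of 0.67. Cd84 averaged 667 ± 340 scaled reads with NOS-null marrow, against 300.0 ± 41.3 with WT marrow (1.02, adjusted p = 0.0743).

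Those of Retnlg were the receptor gene Gpr141 (0.36), the skin and neutrophil protease gene Asprv1 (0.36) and the myeloid receptor gene Cd300lf (0.39), against its own RMS of 1.42. Those of Chia were Raver2, Efcab6 and Fbxl2 (0.11 to 0.14, against 0.29). For Retn they were the myoglobin gene Mb, Calml3 and the muscle gene Smpx (0.23 to 0.27, against 0.66), and for Chi3l1 Ndufc2, Ninj1 and Tmed10 (0.06 to 0.07, against 0.16). Chi3l4 had no close neighbour, its nearest being the interleukin 33 receptor gene Il1rl1 at 0.78, against 1.26. None of these genes passed with all 8 libraries.

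**Figure D4:**
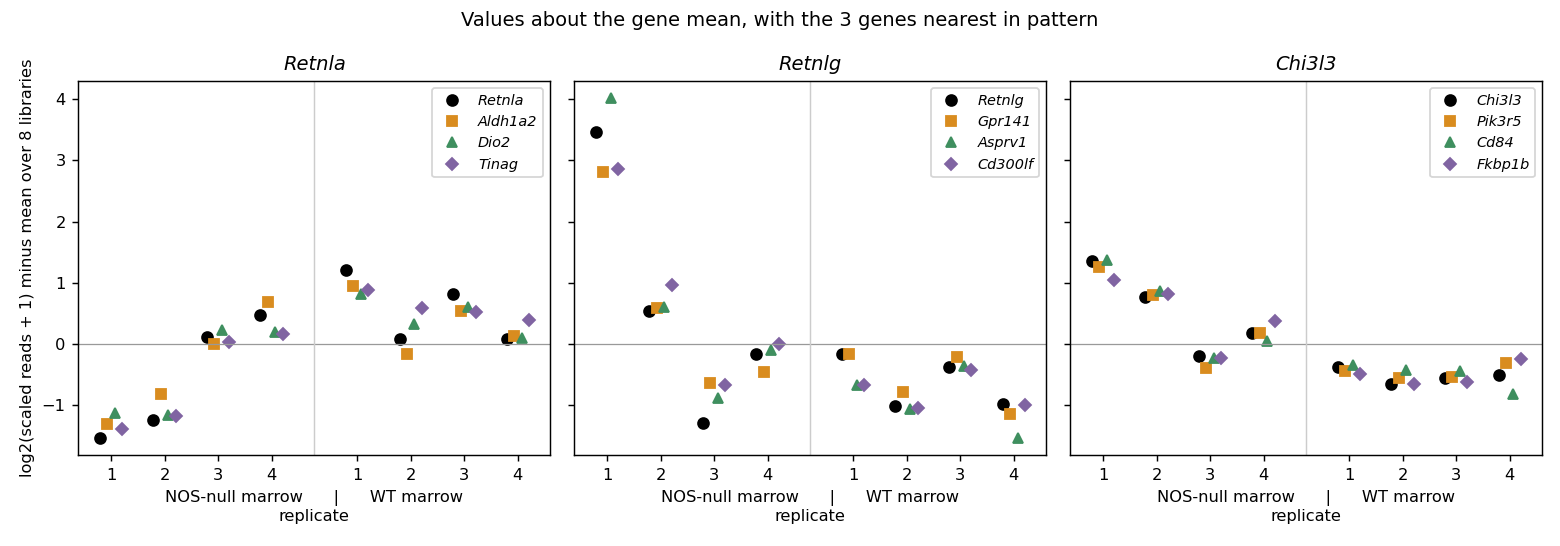
Log2(scaled reads + 1) minus the gene's mean over 8 libraries for Retnla, Retnlg and Chi3l3 (black circles) and the 3 genes nearest to each in pattern (coloured), by replicate of NOS-null marrow (left of the line) and WT marrow (right). The coloured points differ from the black ones by an RMS of 0.11 to 0.39 a gene, and the departures of the 3 genes are largest in NOS-null marrow replicate 1.

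Neutrophil markers had their highest values in the same library as Retnlg. All 11 tested neutrophil genes had a positive log2 change (median 2.13, against 0.000509 over all tested genes), and 1 rose while 10 did not pass. In 9 of the 11, every NOS-null marrow library lay above every WT marrow library, which held for 7.82% of all tested genes. All 11 were still positive, with a median of 1.03, when NOS-null marrow replicates 1 and 2 were left out. The gene that rose was Cd177, which encodes a neutrophil surface protein, with 678 ± 609 scaled reads (NOS-null marrow) against 129 ± 41.7 (WT marrow; 2.07, adjusted p = 0.0466). Its call was lost when any WT marrow library or NOS-null marrow replicate 2 was left out (adjusted p up to 0.127). The calprotectin gene S100a8 had 39729, 3246, 1428 and 1736 scaled reads in NOS-null marrow replicates 1 to 4, against 1141, 518, 1336 and 441 in WT marrow replicates 1 to 4. Summed over the 15 neutrophil genes in the table, FPKM ran from 2207 to 41570 with NOS-null marrow and from 814 to 1892 with WT marrow. The granule gene Mpo of neutrophil precursors had 54.3, 13.5, 0 and 2.18 scaled reads in NOS-null marrow replicates 1 to 4, against at most 1.97 in a WT marrow library. Elane, another such gene, had 32.8, 5.21, 0.991 and 0 scaled reads in NOS-null marrow replicates 1 to 4, against at most 0.995 in a WT marrow library. For Mpo and Elane, NOS-null marrow replicates 3 and 4 were thus at about the level of the WT marrow libraries. Fcnb, also too low to test, was similar, with 0 and 1.09 scaled reads in those replicates, against at most 0.945 in a WT marrow library. In the 9 genes without overlap, replicates 3 and 4 lay above every WT marrow library. The ratio of Retnlg to S100a8 FPKM was 0.0947, 0.153, 0.0966 and 0.175 in replicates 1 to 4 with NOS-null marrow, against 0.265, 0.325, 0.197 and 0.387 in WT marrow replicates 1 to 4, so S100a8 was higher relative to Retnlg in every NOS-null marrow library. This ratio too was chosen after the values were seen and carries no test. The part of neutrophil number in the Retnlg and Chi3l3 values was not tested.

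Alveolar macrophage markers did not move together. Of 15 tested alveolar macrophage genes, 1 rose, 2 fell and 12 did not pass (median 0.21). The log2 change was positive in 9 and negative in 6. Ear2, a ribonuclease gene, rose (600 ± 111 scaled reads with NOS-null marrow against 317 ± 55.9 with WT marrow, log2 change 0.92, adjusted p = 0.0186). The lectin gene Siglec5, the table's symbol for Siglecf, fell (43.1 ± 7.91 with NOS-null marrow against 125 ± 17.4 with WT marrow, −1.52, adjusted p = 0.00248), as did the fatty acid binding protein gene Fabp5 (775 ± 57.4 with NOS-null marrow against 1035 ± 128 with WT marrow, −0.41, adjusted p = 0.0495). Siglec5 passed in all 8 fits that left out 1 library. The Ear2 call was lost with NOS-null marrow replicate 2, WT marrow replicate 2 or WT marrow replicate 3 left out (adjusted p up to 0.0609), and Fabp5 passed only without NOS-null marrow replicate 4 (adjusted p otherwise up to 0.145). The gene Marco did not pass, at 9.24 ± 6.85 scaled reads (NOS-null marrow) and 46.8 ± 2.59 (WT marrow), with no overlap (−2.81, limma adjusted p = 0.0585). Summed FPKM of the alveolar macrophage list ran from 592 to 739 with NOS-null marrow and from 543 to 622 with WT marrow.

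Of 16 monocyte and interstitial macrophage genes, 15 had a positive log2 change (median 0.42). Lyve1, a hyaluronan receptor gene of interstitial macrophages and lymphatic vessels, rose (2374 ± 516 scaled reads with NOS-null marrow against 1496 ± 222 with WT marrow, 0.65, adjusted p = 0.0415), and 15 did not pass. That call was lost in the same fits as the call of Cd177 (adjusted p up to 0.117). The summed FPKM of this list ran from 5447 to 6993 with NOS-null marrow and from 4585 to 6041 with WT marrow. Lyz2 had by far the highest mean of these genes, at 36360 ± 3876 scaled reads (NOS-null marrow) and 32412 ± 4477 (WT marrow; limma adjusted p = 0.408). That sum therefore largely follows Lyz2 and says little of the other genes. Of 4 tested eosinophil genes, all with a negative log2 change (median −1.19), Siglec5 fell and 3 did not pass, among them the eotaxin receptor gene Ccr3 (−2.10, adjusted p = 0.0659). The eosinophil genes Prg2 and Ear11, too low to test, stood the other way, Prg2 at 18.9 ± 16.7 scaled reads (NOS-null marrow) and 4.15 ± 2.11 (WT marrow) and Ear11 at 16.4 ± 13.7 (NOS-null marrow) and 2.21 ± 2.62 (WT marrow), with overlap in both. The granule gene Epx stood at no more than 4.10 scaled reads in any library. The parts of these cells in the Chi3l3 and Retnla values were not tested.

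Epithelial markers, of interest for Retnla and Chia, did not pass in any case. None of 11 alveolar type 2 genes (median −0.06) and none of 12 club and airway secretory genes (median 0.18) passed. Summed FPKM ran from 17710 to 25291 with NOS-null marrow against 23408 to 29038 with WT marrow for the type 2 cell list, and from 67428 to 89318 with NOS-null marrow against 69244 to 92500 with WT marrow for the airway list. Of 7 tested red cell genes, 5 rose and 2 did not pass (median 1.32), with summed FPKM from 5866 to 7554 with NOS-null marrow against 2832 to 3602 with WT marrow.

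Of 64 genes tested in the 5 pathway lists 1 passed (1.56%), where 4.05% of all tested genes did. None of 14 tested genes of type 2 cytokine signalling passed (median 0.03). The cytokine genes themselves were near the floor, with Il4 at no more than 3.97, Il5 at no more than 5.62 and Il13 at no more than 1.09 scaled reads in a library, and Il25 listed at 0 throughout. The alarmin gene Il33 had 289, 486, 1125 and 1172 scaled reads in NOS-null marrow replicates 1 to 4, against 1435, 1234, 1535 and 1358 in WT marrow replicates 1 to 4 (adjusted p = 0.115), and was lowest in the 2 libraries with the least Retnla. The receptor gene Il4ra stood at 1683 ± 856 scaled reads (NOS-null marrow) and 1299 ± 126 (WT marrow; adjusted p = 0.556), and the kinase gene Jak1 at 2259 ± 315 (NOS-null marrow) and 2346 ± 124 (WT marrow; adjusted p = 0.706). Of 19 tested genes of alternatively activated macrophages, 1 fell and 18 did not pass (median −0.04). The gene that fell was the lectin gene Cd209a (17.5 ± 9.57 scaled reads with NOS-null marrow against 86.5 ± 16.2 with WT marrow, −2.37, adjusted p = 0.00947), and it passed in all 8 fits that left out 1 library. The arginase gene Arg1 had 29.7, 44.8, 99.6 and 253 scaled reads in NOS-null marrow replicates 1 to 4, against 396, 178, 188 and 90.7 in WT marrow replicates 1 to 4, with overlap (−1.28, adjusted p = 0.216).

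None of 11 tested genes for receptors and possible binding partners passed (median 0.05), with the abundant Ager at 18444 ± 1040 scaled reads with NOS-null marrow against 17806 ± 626 with WT marrow (adjusted p = 0.734) and Hmgb1 at 4962 ± 146 (NOS-null marrow) and 5590 ± 475 (WT marrow; adjusted p = 0.205). None of 17 tested hypoxia response genes passed (median 0.01), among them the glycolytic gene Ldha at 4640 ± 453 (NOS-null marrow) and 6021 ± 700 (WT marrow; adjusted p = 0.0646) and the hypoxia-inducible factor gene Epas1 at 15162 ± 5369 (NOS-null marrow) and 8797 ± 1739 (WT marrow; adjusted p = 0.0835). Of the relatives of the 7 genes, 3 were tested and none passed. Chid1, a chitinase-domain gene, had 222 ± 26.5 scaled reads (NOS-null marrow) and 299 ± 30.9 (WT marrow), with no overlap (−0.43, adjusted p = 0.0579), and Ctbs, the gene of the sugar-cleaving enzyme chitobiase, at 251 ± 33.3 (NOS-null marrow) and 217 ± 26.6 (WT marrow; adjusted p = 0.303). The resistin relative Retnlb and the chitinase gene Chit1 had at most 8.70 and 4.10 scaled reads in a library.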

How the data were processed

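The submitters' processing notes name CASAVA 1.8.2, TopHat2 2.0.13, Bowtie2 2.2.3, SAMtools 0.1.19, Cufflinks 2.2.1 and the build mm10. The sources used here do not state the annotation or filters. Sample titles set the groups, since the design text gives NOS-null marrow to both. The deposited count-scale table holds signal values, read counts that the authors divided by 1 size factor per library. In each library 98.6 to 98.9% of values above 0 were whole multiples, within 0.05, of the value of 1 read. Some were not, so no count model was used. The FPKM table deposited by the authors gave levels and an alternative.

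The test was limma 3.58.1 (R 4.3.3, trend, no covariates) on log2(value + 1), run on simulated data first, for the 14008 genes that reached 10 in 4 or more libraries, with Benjamini-Hochberg adjustment over all of them and a threshold of 0.05. The 7 genes, the 13 other lists and the tests were chosen with earlier results of these data known. Named genes are the members, list genes that passed (at most 4 of smallest p), the 2 of highest mean in a list, and for each member the 3 nearest in pattern with a mean of at least 20. Others given with values (Nos1, Nos2, Nos3, Plin1, Lep, Il33, Arg1, Il4, Il5, Il13, Il25, Mpo, Elane, Fcnb, Epx, Ccr3, Prg2, Ear11, Retnlb and Chit1) were chosen after these were seen. Marco was likewise chosen after these were seen. RefSeq promoter windows matched all 7 members, and alignments used Biopython 1.88.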

Additional observations from a re-analysis of the deposited data

Results flagged for a closer look

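Of 14 groups of 4 libraries (7 genes, both marrow groups), 1 held a library far from the others by Dixon's criterion. Chance meets this criterion in about 1 in 20 groups of normally distributed values. Retnlg stood at 8178 scaled reads in NOS-null marrow replicate 1, while the other 3 NOS-null marrow libraries held 300 to 1079. The gap to the nearest was 0.901 of the whole range. The criterion was applied to scaled reads and not to log2 values, so the flag holds for that scale only. On the log2 scale, about the gene mean, NOS-null marrow replicates 1 to 4 stood at 3.47, 0.54, −1.30 and −0.17.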

How the results depend on the processing

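No member passed under another pseudocount (0.5 or 5), another filter, TMM or median-of-ratios scaling, FPKM, robust limma or the replicate block. Same-numbered replicates did not deviate together in every pair (correlations of 0.043, 0.169, −0.0027 and 0.151, and 4 of 8 libraries correlated best with their own number), so the numbers are not known to pair mice. The replicate block gave 135 genes called, and Chi3l3 an adjusted p of 0.0617. On FPKM 162 genes were higher, against 262 on scaled reads. Calls numbered 71 to 798 with 1 library left out, and 181 without NOS-null marrow replicates 1 and 2. Without that pair Retnlg was at −0.10 and Chi3l1 at −0.12, and Chia passed at 0.58. With 1 library left out, log2 changes ran from 0.77 to 1.29 for Chi3l3, from 0.39 to 0.59 for Chia, from −0.030 to 0.12 for Chi3l1, from 0.33 to 1.92 for Retnlg and from −1.44 to −0.76 for Retnla. The causes were not tested. Retn and Chi3l4 could not be tested under a minimum of 20, and their few reads limit what can be seen.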
